A study of Mus musculus with 48 samples.

Results

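The experiment described here asked what IFNγ adds to cells that also receive TNF. The compared libraries are the 4 from cells stimulated with 100 ng/ml IFNγ plus 10 ng/ml TNFα (TNF below) and the 4 from cells given 10 ng/ml TNF alone, paired by duration at 2, 6, 12 and 24 h of continuous stimulation. These are 8 of the 48 libraries of the series, chosen by their stimulus label and not by any measured value. All 48 come from NMM, an NRAS-mutated mouse melanoma cell line grown in vitro, with 1 library for each of 12 stimuli at each of 4 durations. Beside the 8 libraries, those given 100 ng/ml IFNγ alone and those left unstimulated are used below to set the IFNγ effect with TNF against the IFNγ effect without it. The labels do not say whether durations were separate cultures, no stimulus was repeated at a duration, and the series holds 1 cell line, so p-values measure the spread of these libraries around additive stimulus and duration terms.

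IFNγ is a cytokine of T cells and NK cells. Its receptor activates the kinases JAK1 and JAK2, which switch on factors that bind GAS elements, and among the genes induced is that of IRF1, which binds interferon-stimulated response elements (ISRE) in a further set of genes. TNF acts through its receptors and the RIPK1 and LUBAC complexes to release NF-κB, which binds κB sites and drives chemokine, cytokine and feedback inhibitor genes. In tumour cells both cytokines are known to change antigen presentation, chemokine output and susceptibility to cell death.

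The 8 libraries held 6982262 to 9663207 gene counts. Before TMM scaling, 1 count was thus worth 0.103 to 0.143 CPM, the unit of counts scaled to library size. The CPM values of genes given below are TMM-scaled. The mitochondrial share of counts was 0.513% to 1.27% in the combination libraries and 0.695% to 1.15% in the TNF libraries. Of 21 melanocyte lineage markers, 6 had no count in the 8 libraries, among them Sox10, Tyr, Dct and Mlana, while Mitf (4.51 to 10.1 CPM), Pax3 (27.7 to 66.7 CPM) and Gpnmb (206 to 564 CPM) were present and Axl reached 2006 to 2727 CPM, so the line lacked the pigmentation markers that would define a differentiated melanocytic cell. Markers of T and NK cells summed to 0.223 to 0.725 CPM in the combination libraries and 0 to 0.882 CPM in the TNF libraries, with 12 of 16 at 0. CPM values are shares of a library's RNA, so fewer cells and less RNA per cell cannot be told apart.

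Adding IFNγ to TNF raised interferon-inducible GTPases, antigen presentation genes, T cell-attracting chemokines, complement genes and serpins, and lowered a smaller group with mostly modest changes. Of 12203 tested genes, 1113 (9.12%) were higher and 591 (4.84%) were lower in the combination at a Benjamini-Hochberg adjusted p below 0.05 by edgeR's quasi-likelihood test, fitted over the 48 libraries with a term for duration; every adjusted p below comes from this test unless another fit is named. At least 2-fold differences were mostly increases, with 315 called genes (2.58%) higher and 24 (0.197%) lower. The median absolute log2 difference of the called genes was 0.45. The direction was the same at all 4 durations for 969 of the higher and 522 of the lower genes. All 4 combination libraries lay above all 4 TNF libraries for 383 genes (3.14%) and below them for 175 (1.43%). Without the 6 h libraries 810 genes were called, without the 12 h libraries 786, and without the 24 h libraries 950, against 1704 (14%) with all libraries; the 2461 calls without the 2 h libraries shared 1559 with these.

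The largest fitted increase was in a gene that TNF alone left close to the counting limit. Ubd, which encodes the ubiquitin-like modifier FAT10 (chr17:37193892-37196095, GRCm38), had 5.51, 33.7, 29.98 and 34.1 CPM at 2, 6, 12 and 24 h in the combination libraries, against 0, 0.244, 0 and 0.144 CPM in the TNF libraries. That is 830 counts in the combination against 3 with TNF, a depth-adjusted ratio of 257 with a 95% interval of 87.5 to 1247 for counting error only (log2 difference 7.69 ± 0.53, adjusted p = 1.7e-11; ± is an approximate standard error here and below). No library of one group overlapped the other.

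Cxcl9, a ligand of the T cell chemokine receptor CXCR3 (chr5:92321347-92328079), had 677, 1599, 1639 and 1444 CPM in the combination libraries and 2.21, 10.2, 19.3 and 9.77 CPM in the TNF libraries (log2 difference 7.08 ± 0.41, adjusted p = 4.6e-15). Its lowest combination library, at 2 h, was far above its highest TNF library, at 12 h. Nos2, the inducible nitric oxide synthase (chr11:78920787-78960254), had 2.47, 24.9, 19.7 and 35.6 CPM in the combination libraries, against 0, 0.366, 0.294 and 0.144 CPM in the TNF libraries (log2 difference 6.51 ± 0.38, adjusted p = 3.1e-12), though DESeq2's test, run as an alternative, did not call it. Serpina3f and Serpina3g, serine protease inhibitors of a multigene cluster, differed by 7.10 ± 0.56 and 6.39 ± 0.45 on the log2 scale. Serpina3f had 3.63, 51.2, 115 and 147 CPM in the combination libraries and 0, 0.244, 1.33 and 0.431 CPM in the TNF libraries. Serpina3g had 4.93, 28.2, 15.1 and 11.3 CPM with the combination, against 0, 0.609, 0 and 0 CPM with TNF, and peaked at 6 h whereas Serpina3f was highest at 24 h. Reads of such close paralogs, and those of the Gbp, Irgm-related, H2, Apol, Ifit and Oas families below, may be split between copies, so values of single members are uncertain.

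**Figure D1:**
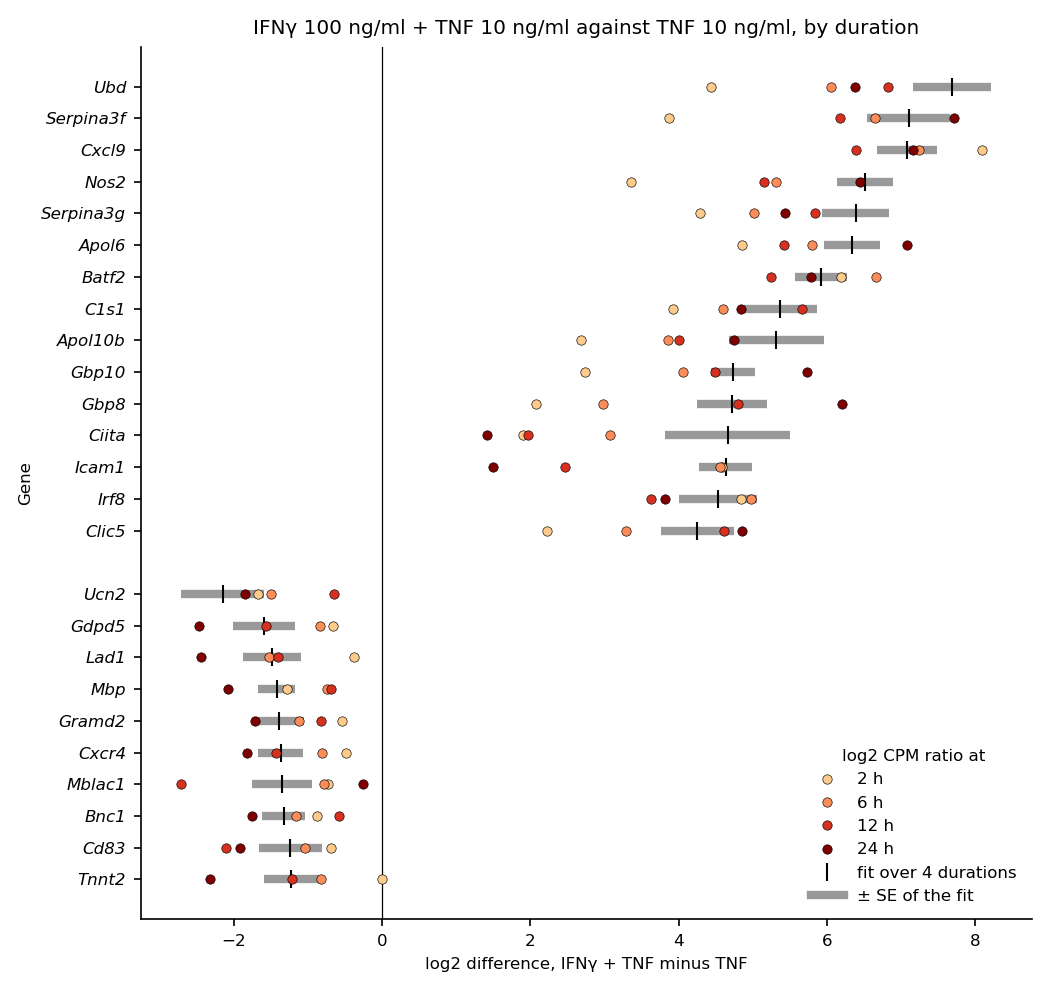
Log2 difference between IFNγ 100 ng/ml + TNF 10 ng/ml and TNF 10 ng/ml libraries (x axis) for the 15 largest called increases and the 10 largest called decreases (y axis). Points are log2 CPM ratios at a single duration, computed with a prior count of 2 that draws low genes towards 0, and ticks with bars are the fitted difference over 4 durations ± SE. Every increase was at least 4.25 in the fit, while the decreases lay between -2.15 and -1.22.

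Promoter windows of some genes called higher in the combination are shown because they carry elements known for IFNγ-responsive, IRF and NF-κB family factors. Each line is the 250 bases before the annotated start site from RefSeq (GRCm38.p6), 5′ to 3′ on the gene's strand, with capitals for matches on either strand to GAS (TTCNNNGAA, which reads the same on both strands), the ISRE core (GAAA, any 2 bases, then GAAA) or κB (GGG, any 2 bases, then TTTCC). A match is a description of these letters and not a bound site. Irf1 and Irf8 had 2 windows each, and the window shown was chosen by its number of GAS matches. The presence of GAS in these windows was thus favoured by the choice.
Irf1: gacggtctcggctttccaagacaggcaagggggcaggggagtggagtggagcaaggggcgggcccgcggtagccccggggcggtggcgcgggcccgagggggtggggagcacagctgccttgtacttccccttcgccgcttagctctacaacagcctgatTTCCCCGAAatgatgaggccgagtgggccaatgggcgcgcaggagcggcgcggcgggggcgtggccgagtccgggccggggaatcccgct
Irf8: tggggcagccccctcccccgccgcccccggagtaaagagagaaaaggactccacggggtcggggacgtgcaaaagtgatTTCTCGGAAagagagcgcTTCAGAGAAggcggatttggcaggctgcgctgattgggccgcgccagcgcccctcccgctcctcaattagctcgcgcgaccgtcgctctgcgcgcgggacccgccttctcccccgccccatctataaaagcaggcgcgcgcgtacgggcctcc
Icam1: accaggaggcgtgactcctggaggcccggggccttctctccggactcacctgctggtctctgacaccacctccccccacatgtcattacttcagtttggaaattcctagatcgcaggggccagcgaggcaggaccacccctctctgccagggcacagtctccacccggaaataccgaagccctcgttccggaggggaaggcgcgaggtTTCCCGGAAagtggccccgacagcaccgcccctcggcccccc
Serpina3g: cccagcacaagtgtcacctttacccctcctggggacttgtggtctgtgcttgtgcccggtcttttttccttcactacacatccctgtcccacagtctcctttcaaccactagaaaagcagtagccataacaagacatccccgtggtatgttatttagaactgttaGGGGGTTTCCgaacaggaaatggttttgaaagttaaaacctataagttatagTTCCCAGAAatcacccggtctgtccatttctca
Gbp5: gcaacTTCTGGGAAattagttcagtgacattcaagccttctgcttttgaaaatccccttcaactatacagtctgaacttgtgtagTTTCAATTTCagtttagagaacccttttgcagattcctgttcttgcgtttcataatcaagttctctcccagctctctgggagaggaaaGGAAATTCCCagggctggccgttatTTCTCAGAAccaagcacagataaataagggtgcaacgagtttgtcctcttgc
Igtp: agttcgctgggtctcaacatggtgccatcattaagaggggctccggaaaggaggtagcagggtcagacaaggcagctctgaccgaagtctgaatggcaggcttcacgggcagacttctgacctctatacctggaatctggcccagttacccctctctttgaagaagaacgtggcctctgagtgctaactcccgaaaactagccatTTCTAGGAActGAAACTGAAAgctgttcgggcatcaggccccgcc
Socs1: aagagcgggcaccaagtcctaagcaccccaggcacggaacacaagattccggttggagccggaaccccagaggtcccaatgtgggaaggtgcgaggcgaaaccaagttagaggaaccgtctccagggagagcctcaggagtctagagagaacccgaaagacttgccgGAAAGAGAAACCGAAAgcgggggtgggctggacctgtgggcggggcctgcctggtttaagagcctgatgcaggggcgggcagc
Their positions are chr11:53769764-53770013 (plus strand) for Irf1, chr8:120736108-120736357 (plus) for Irf8, chr9:21015690-21015939 (plus) for Icam1, chr12:104235897-104236146 (plus) for Serpina3g, chr3:142496684-142496933 (plus) for Gbp5, chr11:58199306-58199555 (plus) for Igtp and chr16:10785537-10785786 (minus) for Socs1. Irf1 held 1 GAS beginning 90 bases before its start site, Irf8 held GAS at 171 and 153 bases, and Icam1 held 1 at 42 bases. Serpina3g had GAS at 33 and κB at 85 bases. Gbp5 had GAS at 245 and 52 bases, an ISRE core at 165 and κB at 77. Igtp had GAS at 45 and an ISRE core at 34 bases, and the ISRE cores of Socs1 at 83 and 77 bases overlapped each other.

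A promoter window was found for 868 of the 1113 genes that were higher, which is below the 80% needed, so a comparison of shares is void and the shares only describe the matched genes. In windows of 300 bases (250 before and 50 after the start), GAS was present in 11.6% of the matched higher genes, 18.5% of those at least 2-fold higher, 5.41% of the lower genes and 8.29% of all tested genes with a window. The ISRE core was present in 10.5%, 17.7%, 1.95% and 3.95% of the same sets, and κB in 3.34%, 4.31%, 1.73% and 2.04%. Over all windows of the table the shares were 9.55%, 3.99% and 1.89%.

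The gene lists below were described by counts and medians only. All 22 tested interferon-inducible GTPases, of 24 listed, rose, with a median log2 difference of 2.14, against -0.01 over all tested genes. Of 25 tested MHC class I presentation genes, 19 rose and none fell (median 1.03). TGF-β and SMAD targets were higher for 2 and lower for 1 of 24, p53 targets for 3 and 2 of 18, and dedifferentiation genes for 5 and 1 of 20, with 1 to 4, 1 to 3 and 4 to 8 higher when a duration was left out. Melanocyte lineage genes gave 1 higher of 7 (Tfap2a, not called without the 6 h or the 24 h libraries). Endothelial markers gave 1 higher of 2 (Eng, not called without the 6 h or the 12 h libraries). Macrophage markers gave 1 lower of 3 (Cd14, not called without the 6 h, the 12 h or the 24 h libraries). No T or NK cell marker was abundant enough to be tested. Of 46 cell cycle and DNA replication genes 2 rose and 1 fell, against 3 and 5 without the 2 h libraries and none without the 12 h or without the 24 h libraries. In the 12 h and 24 h libraries alone 9 of the 46 were higher and none lower, against 11.1% and 7.49% of all genes tested in that fit. Of 7 fibroblast markers none was called.

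**Figure D2:**
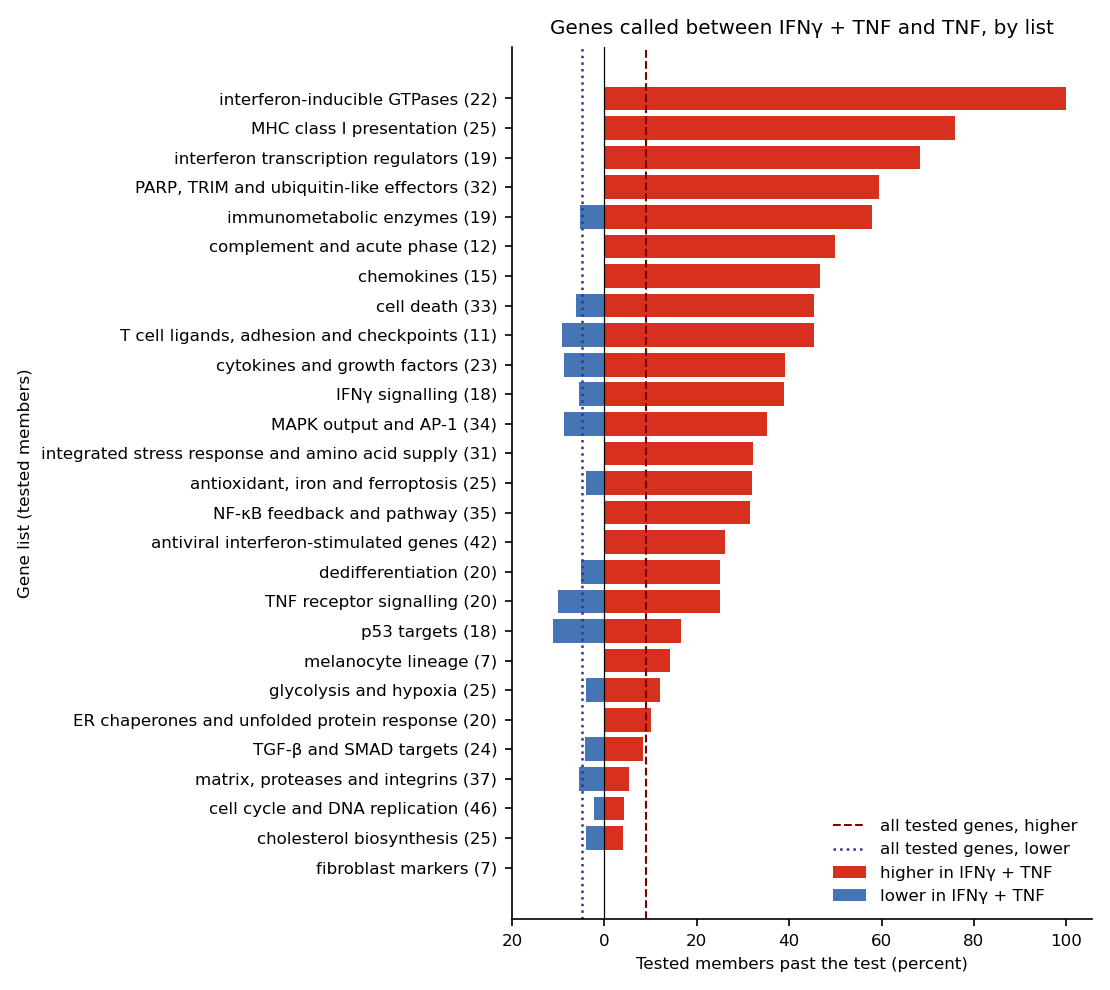
Share of each list's tested members called higher (right, red) or lower (left, blue) in the IFNγ + TNF libraries against the TNF libraries, with dashed and dotted lines for all tested genes (9.12% and 4.84%). Numbers in parentheses are tested members; lists with 7 or more are drawn, and the GTPases, with all 22 higher, stand at the top.

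Among genes of the IFNγ signalling pathway, 7 of 18 were higher and 1 was lower. The feedback inhibitors moved most. Socs1, which blocks JAK kinases, had 40.5, 43.5, 27.03 and 37.4 CPM in the combination libraries and 10.002, 7.31, 7.95 and 5.17 CPM in the TNF libraries (log2 difference 2.32 ± 0.26, adjusted p = 1.4e-08). Socs3, a related inhibitor, had 136, 128, 95.99 and 108 CPM with the combination, against 19.3, 13.04, 26.2 and 20.3 CPM with TNF (log2 difference 2.57 ± 0.15, adjusted p = 2.6e-15), with no overlap between groups for either gene. Jak2, the kinase paired with IFNGR2, had 139.8, 257, 249.8 and 178 CPM in the combination libraries and 88.2, 115, 118 and 110.5 CPM in the TNF libraries (log2 difference 0.91 ± 0.12, adjusted p = 2.5e-07).

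Stat3, the factor of IL-6 family cytokines, had 492, 361, 242 and 243 CPM in the combination libraries, against 86.5, 137, 154 and 168 CPM in the TNF libraries (log2 difference 1.25 ± 0.25, adjusted p = 0.0005), and its difference shrank with duration (slope per doubling of duration -0.57 ± 0.09, adjusted p = 0.00068, not called without the 2 h libraries). Each combination library of Stat3 was above each TNF library. The receptor subunit Ifngr2 was the only lower member called in the pathway, at 64.4, 58.8, 48.5 and 51.9 CPM in the combination libraries and 78.98, 79.8, 62.6 and 60.5 CPM in the TNF libraries (log2 difference -0.34 ± 0.11, adjusted p = 0.029). Its call was lost without the 6 h or the 12 h libraries, where no member was called lower.

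Transcription regulators of the interferon response were higher for 13 of 19 and lower for none, although 6 were called without the 6 h libraries and 8 without the 12 h libraries. Irf1, an early factor of the IFNγ response, had 1072, 880.5, 779 and 776 CPM in the combination libraries and 108, 88.9, 168 and 155 CPM in the TNF libraries (log2 difference 2.77 ± 0.28, adjusted p = 4.7e-09), the highest combination value being that at 2 h. Irf8, a partner of IRF1 and PU.1 best known from myeloid cells, had 301, 173, 75.6 and 74.5 CPM with the combination, against 10.3, 5.24, 5.89 and 5.03 CPM with TNF (log2 difference 4.53 ± 0.53, adjusted p = 9e-08). Batf2, an AP-1 family factor that pairs with IRF1 in macrophages, had 19.3, 126, 155 and 189.6 CPM in the combination libraries and 0, 0.975, 3.83 and 3.16 CPM in the TNF libraries (log2 difference 5.92 ± 0.35, adjusted p = 4.2e-15). None of these genes had overlapping groups. Irf8 was lower at each later duration in the combination while Batf2 was highest at 24 h. Nlrc5, the transactivator of MHC class I genes, had 312, 430.3, 431 and 405 CPM with the combination and 55.6, 173, 211 and 213 CPM with TNF (log2 difference 1.34 ± 0.25, adjusted p = 0.00023).

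The interferon-inducible GTPases act on pathogen vacuoles and in cell-autonomous immunity, and all 22 stayed higher when the libraries of any one duration were left out. Gbp4 had 154, 1279.8, 1927 and 2084 CPM in the combination libraries, against 14.4, 102, 102 and 64.2 CPM in the TNF libraries (log2 difference 4.25 ± 0.47, adjusted p = 2.8e-08). Gbp10 had 3.48, 42.8, 81.5 and 97.8 CPM in the combination libraries and 0.294, 2.32, 3.39 and 1.58 CPM in the TNF libraries (log2 difference 4.73 ± 0.30, adjusted p = 4.2e-15). Igtp (Irgm3), a regulatory IRG protein, had 742, 1293, 1263 and 1128 CPM with the combination and 93.2, 234, 332 and 231 CPM with TNF (log2 difference 2.36 ± 0.28, adjusted p = 1.2e-07). The smallest increase in the list was that of the very large GTPase Gvin1 (log2 difference 0.71 ± 0.15, adjusted p = 0.00094), and its groups did not overlap either.

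Genes known mainly as type I interferon-stimulated antiviral effectors moved less. Of 42, 11 were higher and none lower (median 0.44), with 3 called without the 6 h libraries and 2 without the 12 h libraries, while 28 were called in a fit of the 8 libraries alone. Several of them had high levels in the TNF libraries. Rsad2 (viperin) had 1544, 2492, 5107 and 3748 CPM in the combination libraries and 712, 1036, 2683 and 2123 CPM in the TNF libraries (log2 difference 1.02 ± 0.33, adjusted p = 0.036). Ifit2, which binds viral RNA, had 751, 2511, 3994 and 2601 CPM with the combination, against 272, 979, 1595 and 1200.5 CPM with TNF (log2 difference 1.29 ± 0.38, adjusted p = 0.02). Both genes were higher at each duration but their groups overlapped across durations. PARP, TRIM and ubiquitin-like effectors were higher for 19 of 32 (median 0.53), and for 6 without either the 6 h or the 12 h libraries.

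In the MHC class I pathway, leaving out the libraries of 1 duration left 14 to 19 of 25 members higher. Tap1 and Tap2, the peptide transporter subunits, differed by 1.28 ± 0.23 and 1.94 ± 0.26 on the log2 scale. Tap1 had 352, 645, 571 and 504 CPM in the combination libraries and 83.98, 227, 342 and 249 CPM in the TNF libraries, without overlap. The immunoproteasome subunit Psmb9 had 23.5, 88.2, 142 and 131 CPM with the combination, against 9.41, 20.7, 42.99 and 37.8 CPM with TNF (log2 difference 1.77 ± 0.25, adjusted p = 2.9e-06). Tapbpl, the peptide editor TAPBPR, had 33.9, 87.04, 64.5 and 59.04 CPM in the combination libraries and 9.71, 19.99, 21.4 and 17.8 CPM in the TNF libraries (log2 difference 1.82 ± 0.19, adjusted p = 4.8e-09). Tapbpl was higher in each combination library than in any TNF library, whereas the 2 h combination library of Psmb9 lay within its TNF range. The class I light chain B2m changed less, with 1965, 2237, 2980.2 and 3043 CPM in the combination libraries, against 1579, 1665, 2277 and 2138 CPM in the TNF libraries (log2 difference 0.42 ± 0.09, adjusted p = 0.0014). Its 2 h and 6 h combination libraries lay within the range of the TNF libraries.

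Of the MHC class II genes, 3 were tested and Ciita, the class II transactivator, was called. Its counts were low, with 40 in the combination libraries against 1 in the TNF libraries, a ratio of 37.1 (95% interval 6.29 to 1502), and it was too low to be tested without the 6 h libraries.

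Chemokine genes were higher for 7 of 15 and lower for none, but for 4 without the 6 h libraries and 3 without the 12 h libraries. Cxcl10 and Cxcl11 encode the other CXCR3 ligands. Cxcl10 was already abundant with TNF and had 3928, 4960.4, 5787 and 4489 CPM in the combination libraries, against 623, 1946, 3460.0 and 2495 CPM in the TNF libraries (log2 difference 1.30 ± 0.38, adjusted p = 0.019). Cxcl11 had 12.9, 84.4, 212 and 202 CPM with the combination and 0.441, 5.61, 31.1 and 31.8 CPM with TNF (log2 difference 2.97 ± 0.30, adjusted p = 5.7e-09). Each Cxcl10 library of the combination was above each TNF library, while the 2 h combination library of Cxcl11 lay within its TNF range. Ccl5, a chemokine that attracts T cells, had 31.6, 222, 1291 and 2465 CPM in the combination libraries and 25.3, 58.1, 289.9 and 262 CPM in the TNF libraries (log2 difference 2.37 ± 0.51, adjusted p = 0.0012), and its difference grew with duration (slope 0.75 ± 0.18, adjusted p = 0.019). Its 2 h libraries were close while those at 24 h were the farthest apart. Cx3cl1 (fractalkine) had 273, 229, 15.998 and 9.91 CPM with the combination, against 67.1, 42.4, 6.92 and 10.6 CPM with TNF (log2 difference 1.88 ± 0.53, adjusted p = 0.014), and its 24 h combination library was no higher than the TNF library. Cxcl10 and Cx3cl1 each lost their call without the 2 h, the 6 h or the 12 h libraries.

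Of 23 cytokine and growth factor genes 9 were higher and 2 lower, with 3 to 4 higher when the 6 h, 12 h or 24 h libraries were left out. Il1rn, the antagonist of the IL-1 receptor, had 4.35, 14.6, 25.5 and 21.1 CPM in the combination libraries and 1.91, 3.17, 2.94 and 2.299 CPM in the TNF libraries (log2 difference 2.64 ± 0.39, adjusted p = 3.6e-06). Il15, a growth factor of T and NK cells, had 3.05, 12.3, 23.8 and 25.6 CPM with the combination, against 1.03, 2.93, 6.48 and 5.46 CPM with TNF (log2 difference 1.99 ± 0.33, adjusted p = 3.1e-05). Il33, an alarmin, had 98.5, 98.1, 710.0 and 622 CPM in the combination libraries and 92.96, 58.7, 128 and 114 CPM in the TNF libraries (log2 difference 1.67 ± 0.38, adjusted p = 0.0022), with its separation at 12 h and 24 h (slope 0.76 ± 0.19, adjusted p = 0.024). Il1rn was the one of these without overlap between groups; Il15 and Il33 were higher at each duration. The lower members were Tslp (log2 difference -0.96 ± 0.32, adjusted p = 0.038) and Vegfa, the angiogenic factor (log2 difference -0.45 ± 0.13, adjusted p = 0.018). Vegfa had 365, 180.1, 229 and 282 CPM with the combination and 440.4, 219, 369 and 410.4 CPM with TNF, lower at each duration. No member of the list was called lower without the 6 h or without the 12 h libraries. Without the 2 h or without the 24 h libraries, 1 member was called lower.

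Among ligands, adhesion molecules and checkpoints that T cells engage, 5 of 11 were higher and 1 lower, with 2 higher without the 6 h or without the 12 h libraries. Icam1, the ligand of the integrin LFA-1, had 62.7, 29.01, 2.02 and 0.891 CPM in the combination libraries and 2.35, 0.975, 0.147 and 0.144 CPM in the TNF libraries (log2 difference 4.63 ± 0.36, adjusted p = 3.8e-11). It was higher at every duration, although the groups overlapped across durations. In the combination its level was lower at each later duration. With TNF it was lower at 6 h than at 2 h, and its 12 h and 24 h values were each about 1 count. Vcam1 had 174, 259, 256 and 181 CPM with the combination, against 119.9, 125, 85.4 and 60.6 CPM with TNF (log2 difference 1.24 ± 0.30, adjusted p = 0.0042). Cd274, the checkpoint ligand PD-L1, differed by 2.52 ± 0.41, whereas Cd276 (B7-H3) was lower (log2 difference -0.44 ± 0.14, adjusted p = 0.035). The Cd276 call was lost without the 6 h, the 12 h or the 24 h libraries.

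Of 19 immunometabolic genes 11 were higher and 1, the urea cycle enzyme gene Asl, was lower, a call lost without the 6 h, the 12 h or the 24 h libraries. Acod1, which makes itaconate, had 104, 316, 1139 and 1574 CPM in the combination libraries and 34.7, 39.002, 191 and 256 CPM in the TNF libraries (log2 difference 2.53 ± 0.39, adjusted p = 1.3e-05). Ido2, a tryptophan dioxygenase, had 8.85, 19.5, 21.6 and 35.5 CPM with the combination, against 1.91, 2.32, 2.36 and 3.74 CPM with TNF (log2 difference 2.99 ± 0.27, adjusted p = 6.4e-11), and its paralog Ido1 had 39 counts in the combination libraries against 3 in the TNF libraries, a ratio of 12.1 (95% interval 3.83 to 61.0). Wars, the tryptophanyl-tRNA synthetase, had 245, 593, 316 and 273 CPM in the combination libraries and 106, 123, 127 and 113 CPM in the TNF libraries (log2 difference 1.56 ± 0.14, adjusted p = 1.6e-10), highest at 6 h. Slc2a6, a hexose transporter of lysosomal membranes, had 32.4, 107, 52.5 and 37.2 CPM with the combination and 8.38, 19.6, 12.4 and 8.05 CPM with TNF (log2 difference 2.20 ± 0.25, adjusted p = 3.3e-08). Sod2, the mitochondrial superoxide dismutase, had 167, 212, 145 and 130.4 CPM in the combination libraries, against 77.5, 87.4, 89.96 and 73.7 CPM in the TNF libraries (log2 difference 0.97 ± 0.08, adjusted p = 1.7e-11). The groups did not overlap for Ido2, Wars, Slc2a6 or Sod2.

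Complement and acute phase genes were higher for 6 of 12. C1s1 and C1ra, the proteases of the C1 complex, differed by 5.37 ± 0.50 and 4.17 ± 0.51 on the log2 scale, and neither gene's groups overlapped. C1s1 had 3.77, 18.1, 28.3 and 44.6 CPM in the combination libraries and 0, 0.488, 0.294 and 1.29 CPM in the TNF libraries. C4b, a component cleaved by C1s, had 1.45, 5.296, 13.98 and 13.8 CPM with the combination, against 0.735, 0.244, 0.736 and 0.287 CPM with TNF (log2 difference 3.97 ± 0.55, adjusted p = 1.2e-06). Each of these genes was below 2 CPM in every TNF library.

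Cell death genes were higher for 15 of 33 and lower for 2, with 9 higher without the 12 h libraries. Fas, a death receptor, had 26.4, 18.4, 10.4 and 12.3 CPM in the combination libraries and 4.85, 3.17, 5.301 and 4.17 CPM in the TNF libraries (log2 difference 1.89 ± 0.27, adjusted p = 1.3e-06). Casp12 and Casp4, caspases of the inflammatory group, differed by 1.88 ± 0.19 and 1.54 ± 0.23, both without overlap. Casp4 had 46.9, 75.6, 109 and 104 CPM with the combination and 12.1, 23.3, 37.99 and 43.4 CPM with TNF. Bak1, a pore-forming effector of mitochondrial apoptosis, had 85.9, 114, 122 and 113 CPM in the combination libraries, against 52.8, 74.2, 81.6 and 65.95 CPM in the TNF libraries (log2 difference 0.67 ± 0.09, adjusted p = 4.5e-07). Bax, another such effector, was called lower, with log2 differences of -0.27 to -0.09 in the alternative fits. Genes that restrain death were called in both directions, with Cflar, the caspase-8 inhibitor c-FLIP, higher (log2 difference 0.44 ± 0.07, adjusted p = 1.2e-05) and Bcl2 lower (log2 difference -0.60 ± 0.18, adjusted p = 0.019). Without the 6 h, the 12 h or the 24 h libraries Bcl2 and Bax lost their calls and no gene of the list was called lower. Mlkl, the effector of necroptosis, had 219, 419.6, 684 and 562 CPM with the combination and 139, 246, 396 and 300.3 CPM with TNF (log2 difference 0.79 ± 0.18, adjusted p = 0.0016).

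Although TNF was present in both groups, 11 of 35 NF-κB pathway and feedback genes were higher in the combination and none was lower, with 6 called without the 6 h libraries and 16 higher and 2 lower without the 2 h libraries. Ripk2, a kinase that links NOD receptors to NF-κB, had 80.9, 93.7, 93.2 and 67.4 CPM in the combination libraries and 33.4, 37.7, 34.01 and 30.6 CPM in the TNF libraries (log2 difference 1.30 ± 0.11, adjusted p = 2.9e-11). Nfkbiz, an atypical IκB, had 67.6, 61.5, 59.3 and 80.6 CPM with the combination, against 37.9, 26.3, 37.7 and 52.01 CPM with TNF (log2 difference 0.83 ± 0.13, adjusted p = 1.1e-05). The deubiquitinase gene Tnfaip3 (A20) had 474, 385, 175 and 152 CPM in the combination libraries and 369, 173, 127 and 112 CPM in the TNF libraries (log2 difference 0.61 ± 0.16, adjusted p = 0.0078). The groups overlapped for Tnfaip3, whose level was highest at 2 h in both, but not for Ripk2 or Nfkbiz. Rbck1, Rnf31 and Sharpin, which encode the LUBAC subunits, differed by 0.52 ± 0.07, 0.91 ± 0.13 and 0.27 ± 0.08. In the TNF receptor list 5 of 20 were higher and 2 lower (3 to 4 higher with 1 duration left out), among them Tnfrsf1a, the main TNF receptor, with 196, 205, 161 and 158 CPM in the combination libraries and 98.4, 127, 109 and 121 CPM in the TNF libraries (log2 difference 0.66 ± 0.10, adjusted p = 2.5e-06).

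MAPK output and AP-1 genes were higher for 12 of 34 and lower for 3, with 5 higher without the 6 h libraries. Jun had 347, 589, 327 and 461 CPM in the combination libraries and 172, 278, 228 and 216 CPM in the TNF libraries (log2 difference 0.93 ± 0.14, adjusted p = 9.5e-06). Dusp6, the ERK phosphatase, had 524, 526, 505 and 499 CPM with the combination, against 269, 278, 362 and 370.3 CPM with TNF (log2 difference 0.70 ± 0.08, adjusted p = 9.7e-09), while Etv4 and Etv5, other known ERK targets, were lower by small margins (-0.31 ± 0.07 and -0.34 ± 0.08). Neither Jun nor Dusp6 had overlapping groups. Without the 6 h libraries no gene of this list was called lower, and Etv4 also lost its call without the 12 h libraries. Metallothionein Mt2 had 694, 856, 394 and 427 CPM in the combination libraries and 393, 333, 169 and 118 CPM in the TNF libraries (log2 difference 1.30 ± 0.14, adjusted p = 1.2e-08), in an antioxidant and iron list with 8 of 25 higher and 1 lower.

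The largest decreases were smaller and were in genes of low abundance. Cxcr4, the receptor of CXCL12, had 4.21, 2.88, 7.46 and 10.03 CPM in the combination libraries and 6.03, 5.24, 20.6 and 36.4 CPM in the TNF libraries (log2 difference -1.37 ± 0.31, adjusted p = 0.0017), and was not called without the 12 h or the 24 h libraries. Mbp, a myelin protein gene, had 1.596, 1.497, 1.09 and 1.23 CPM with the combination, against 4.27, 2.68, 1.91 and 6.03 CPM with TNF (log2 difference -1.43 ± 0.25, adjusted p = 7.6e-05), and kept its call in every alternative. Ucn2, Gdpd5, Lad1, Gramd2, Mblac1, Bnc1 and Cd83 never exceeded 6.03 CPM in these 8 libraries, differed by -2.15 to -1.24, and each lost its call when the libraries of at least 1 duration were left out. Tnnt2, a troponin gene, had 12.04, 9.67, 15.4 and 8.69 CPM in the combination libraries and 12.1, 17.4, 36.1 and 44.5 CPM in the TNF libraries (log2 difference -1.22 ± 0.37, adjusted p = 0.023) and lost its call without the 6 h, the 12 h or the 24 h libraries.

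Several genes outside the lists were picked after their values were seen. Jag1, a Notch ligand, had 51.6, 37.4, 31.7 and 39.1 CPM in the combination libraries and 91.2, 91.7, 77.6 and 113 CPM in the TNF libraries (log2 difference -1.22 ± 0.12, adjusted p = 1.1e-09), so that each combination library was below each TNF library. Notch1, a receptor of JAG1, moved the other way (log2 difference 1.51 ± 0.16, adjusted p = 6.9e-09). Fst, the activin antagonist follistatin, had 598, 756, 293 and 281 CPM with the combination, against 101, 108, 37.8 and 36.1 CPM with TNF (log2 difference 2.83 ± 0.17, adjusted p = 4.2e-15). Prdm1, the repressor BLIMP-1, had 5.95, 7.02, 10.4 and 19.9 CPM in the combination libraries and 0.882, 0.244, 2.36 and 2.87 CPM in the TNF libraries (log2 difference 2.83 ± 0.36, adjusted p = 1.6e-07). Il15ra, which presents IL-15, had 20.02, 46.98, 38.99 and 26.4 CPM with the combination and 2.79, 6.58, 6.77 and 7.76 CPM with TNF (log2 difference 2.43 ± 0.27, adjusted p = 6.9e-09). For Fst, Prdm1 and Il15ra each combination library was above each TNF library. Lower genes among them were Fgf2 (log2 difference -1.09 ± 0.23, adjusted p = 0.00066) and the ubiquitin ligase gene Fbxo32 (log2 difference -0.90 ± 0.12, adjusted p = 7.1e-07).

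Large differences were counted at each duration. At least 2-fold increases, among genes with 5 CPM or more in either library and with no test because there is 1 library a group, numbered 191 of 9928 at 2 h (1.92%), 309 of 10016 at 6 h (3.09%), 285 of 10042 at 12 h (2.84%) and 333 of 10169 at 24 h (3.27%). At least 2-fold decreases numbered 9 (0.0907%), 27 (0.27%), 58 (0.578%) and 130 (1.28%) at these durations. The median log2 CPM ratio of the GTPases was 2.71, 2.17, 1.67 and 1.83 at 2, 6, 12 and 24 h. That of the MHC class I list was 0.61, 1.09, 0.74 and 1.17.

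**Figure D3:**
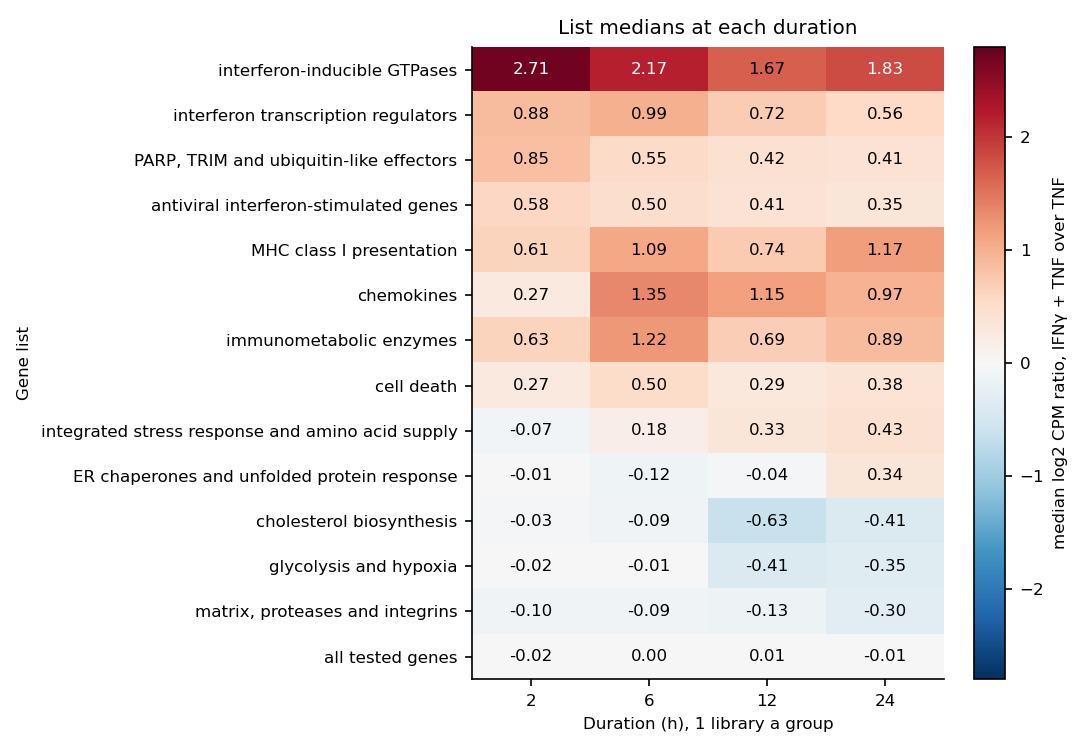
Median log2 CPM ratio of IFNγ + TNF over TNF for the tested members of 13 gene lists and for all tested genes (rows) at each duration in hours (columns), 1 library a group. The GTPase median was 2.71 at 2 h and 1.83 at 24 h, the integrated stress response median -0.07 and 0.43, and the cholesterol synthesis median -0.03 and -0.41.

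The slope of the difference on the log2 of duration was called for 399 genes (3.27%), rising for 196 (1.61%) and falling for 203 (1.66%). A rising slope can be a decrease that shrank, and a falling slope a decrease that deepened. Without the 24 h libraries 23 were called, without the 12 h libraries 183 and without the 2 h libraries 144. Gbp8 had 5.803, 21.1, 81.2 and 167 CPM in the combination libraries and 1.18, 2.44, 2.65 and 2.01 CPM in the TNF libraries, so its difference widened at each later duration (slope 1.29 ± 0.27, adjusted p = 0.006). Fhod3, a formin, had 7.83, 37.3, 41.01 and 50.1 CPM with the combination, against 5.59, 7.68, 5.45 and 3.74 CPM with TNF (slope 0.81 ± 0.16, adjusted p = 0.0027). Tubb3, a tubulin gene, went the other way, with 18.3, 18.998, 6.21 and 7.69 CPM in the combination libraries and 0.294, 0.366, 1.33 and 1.72 CPM in the TNF libraries (slope -1.26 ± 0.30, adjusted p = 0.012). Ptgs2, the inducible cyclooxygenase COX-2, was lower with the combination at 2 h and higher at 24 h, with 3928, 4405, 3575 and 5130.0 CPM in the combination libraries and 5076, 3776, 2518 and 1903 CPM in the TNF libraries (slope 0.48 ± 0.06, adjusted p = 2.6e-05). Ccne1, which encodes cyclin E1, had 29.4, 48.8, 128 and 112 CPM with the combination and 31.9, 46.3, 45.5 and 37.9 CPM with TNF (slope 0.55 ± 0.11, adjusted p = 0.0056). Its 2 h and 6 h pairs were close, and its 12 h and 24 h pairs were apart.

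**Figure D4:**
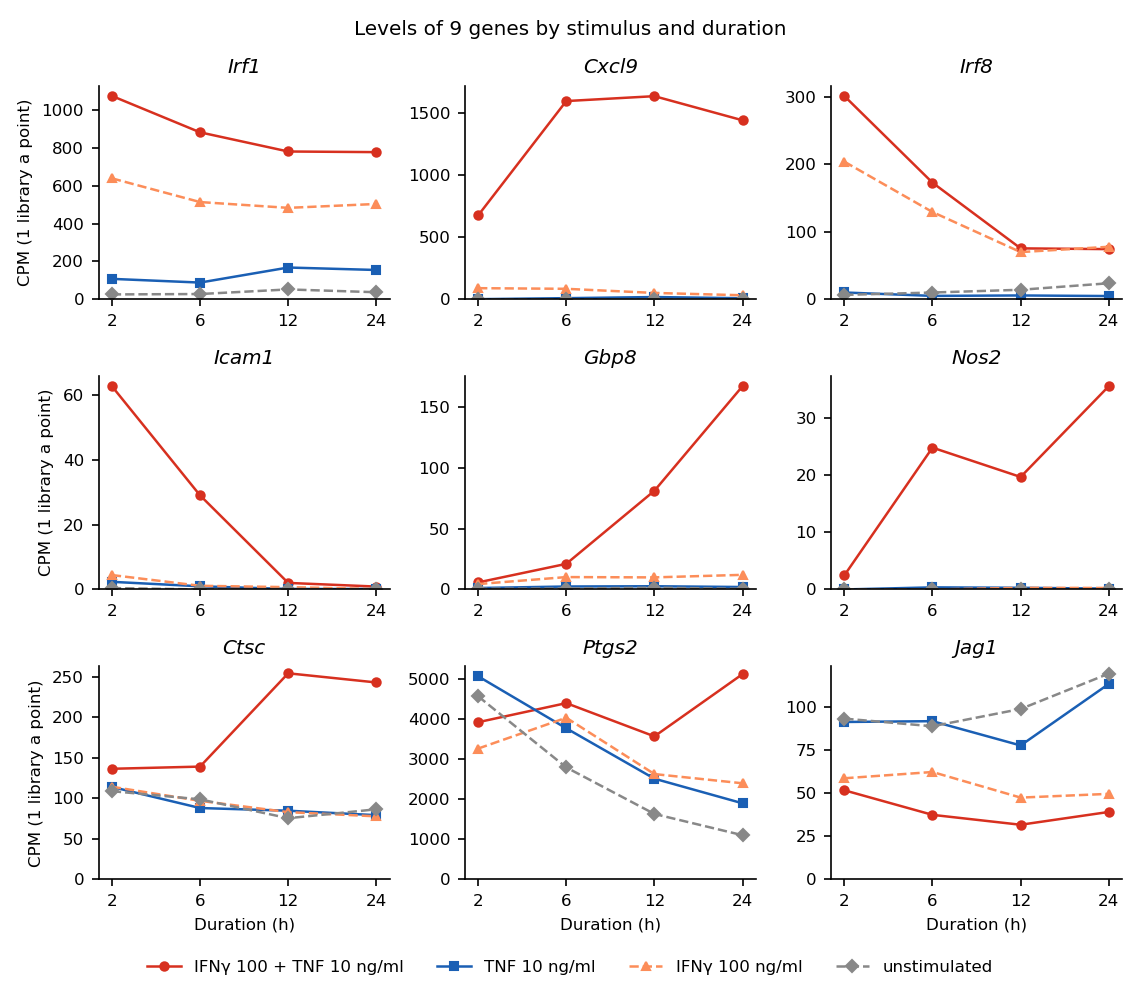
CPM (y axis, linear, from 0) of 9 genes by duration in hours (x axis, equally spaced), 1 library a point, in IFNγ + TNF, TNF, IFNγ and unstimulated libraries. Icam1 was at 62.7 CPM at 2 h and 0.891 CPM at 24 h in the combination libraries, while Gbp8 was at 5.803 CPM and 167 CPM.

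Library numbers in the column headers run S50 to S73 for the 2 h and 6 h libraries and S74 to S97 for the 12 h and 24 h libraries, so that numbering and duration cannot be told apart, and the comparison was also fitted within each pair of durations. In the 2 h and 6 h libraries 408 genes (3.36%) were higher and 47 (0.387%) lower; in the 12 h and 24 h libraries 1358 (11.1%) were higher and 916 (7.49%) lower. Several metabolic lists had larger counts of called members in the later pair, but this was not particular to them. Members called higher numbered 9 in the earlier and 15 in the later pair for MHC class I, and 8 and 15 for NF-κB. Cell death genes gave 8 and 14. The count fell for the GTPases (20 and 18) and for MHC class II (1 and 0). Counts in the later pair stand against 11.1% higher and 7.49% lower over all genes tested there.

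Cholesterol synthesis genes, targets of the factor SREBP2, were lower for 17 of 25 in the 12 h and 24 h libraries and none was called in the 2 h and 6 h libraries. Fitted over all durations, 1 was higher and 1 lower, and the slope was called for 2. Nsdhl, a sterol dehydrogenase gene, had 61.5, 40.3, 18.2 and 21.6 CPM in the combination libraries and 60.5, 52.9, 44.8 and 42.5 CPM in the TNF libraries. Its log2 difference in the later pair was -1.11 (adjusted p = 5.1e-07) and its slope -0.33 ± 0.08, adjusted p = 0.028. The other gene with a called slope was Hsd17b7, which differed in the later pair by -0.85 (adjusted p = 3.1e-06). Hmgcs1, an early enzyme of the pathway, differed by -0.58 (adjusted p = 0.00014) in the later pair, against -0.10, not called, in the earlier pair.

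Glycolysis and hypoxia genes were lower for 12 of 24 and higher for 3 in the 12 h and 24 h libraries, against 2 of 25 higher and none lower in the 2 h and 6 h libraries. Pdk1, which restrains pyruvate oxidation, had 61.4, 35.2, 17.7 and 13.1 CPM in the combination libraries and 58.5, 39.7, 36.1 and 29.02 CPM in the TNF libraries, and differed in the later pair by -1.09 (adjusted p = 1e-05). Ldha, lactate dehydrogenase, differed by -0.46 (adjusted p = 0.00055) in the later pair. Hk2, hexokinase 2, was higher throughout, with 765, 570.0, 390.5 and 304 CPM with the combination and 283, 286, 249.9 and 185 CPM with TNF (log2 difference 0.97 ± 0.13, adjusted p = 1.7e-06). Egln3 differed by -0.69 (adjusted p = 0.0011) in the later pair and 0.43, not called, in the earlier pair.

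Integrated stress response genes, among them amino acid transporters and synthetases that ATF4 targets, were higher for 10 of 31 over all durations and for 2 to 4 when the 6 h, 12 h or 24 h libraries were left out. In the 12 h and 24 h libraries 21 were higher and none lower, against 3 in the 2 h and 6 h libraries. A rising slope of the difference was called for 10. Atf4 had 347, 436, 566 and 626 CPM in the combination libraries and 353, 306, 433 and 426 CPM in the TNF libraries (slope 0.15 ± 0.04, adjusted p = 0.026). Ddit3 (CHOP) had 15.5, 22.5, 64.5 and 109 CPM with the combination, against 16.6, 15.8, 36.8 and 35.2 CPM with TNF (slope 0.50 ± 0.11, adjusted p = 0.0074). For Atf4 and Ddit3 the 2 h libraries were alike and the 24 h libraries the farthest apart. Atf3 was higher at every duration, with 41.2, 42.7, 48.9 and 50.6 CPM in the combination libraries and 14.6, 8.17, 24.4 and 23.9 CPM in the TNF libraries (log2 difference 1.45 ± 0.19, adjusted p = 5.7e-07). Chaperone genes of the endoplasmic reticulum were higher for 7 of 20 in the later pair, among them Hspa5 (BiP), with 1349.9, 1372, 2242 and 2806 CPM with the combination and 1355, 1303, 1819 and 1468 CPM with TNF, a difference in the later pair of 0.65 (adjusted p = 0.013).

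Matrix, protease and integrin genes were lower for 11 of 36 and higher for 5 in the later pair, against 2 of 37 each way over all durations. Lamb1, a laminin chain, had 616, 516, 473 and 362 CPM in the combination libraries and 674, 620.4, 624 and 599 CPM in the TNF libraries (log2 difference -0.37 ± 0.08, adjusted p = 0.0016), a call lost without the 12 h libraries. Col3a1, a fibrillar collagen, had 310.4, 151, 99.3 and 34.2 CPM with the combination, against 296, 203, 178 and 129 CPM with TNF (slope -0.49 ± 0.13, adjusted p = 0.032, not called without the 6 h, the 12 h or the 24 h libraries). Fibroblast markers, of which Col3a1 is one, summed to 79.9 to 374 CPM in the combination libraries and 218 to 359 CPM in the TNF libraries. The part of other cells in these values was not tested.

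The effect of IFNγ with TNF present was then set against its effect without TNF, 100 ng/ml IFNγ minus unstimulated, which shares no library with it. Without TNF, IFNγ raised 1567 genes (12.8%) and lowered 1135 (9.3%). Of the genes called with TNF, 1015 were called in the same direction without it and 3 in the opposite one, 686 were called only with TNF and 1684 only without. The difference between the effects passed the test for 10 genes (0.0819%), 8 (0.0656%) with a more positive and 2 (0.0164%) with a more negative effect when TNF was present, whereas 1476 had an unadjusted p below 0.05. The number ranged from 0 to 45 when 1 duration was left out, being 0 without the 6 h libraries and 45 without the 2 h libraries, and was 0 in a fit of the 16 libraries of these 4 groups and 94 in the 12 h and 24 h libraries.

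Ninj1, which drives plasma membrane rupture, had 65.6, 75.4, 63.99 and 91.3 CPM in the combination libraries and 44.4, 31.3, 35.2 and 35.6 CPM in the TNF libraries. It had 32.9, 23.8, 19.3 and 27.9 CPM with IFNγ alone and 36.5, 29.2, 24.3 and 26.8 CPM unstimulated, a difference between the effects of 1.201 ± 0.17, adjusted p = 0.00015. The combination libraries were above the other 3 groups, which overlapped one another. Ctsc, the protease dipeptidyl peptidase I, had 137, 139, 254 and 243 CPM with both cytokines and 114, 88.1, 84.8 and 79.3 CPM with TNF.

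With IFNγ alone Ctsc had 114, 96.98, 83.04 and 77.9 CPM, against 109, 98.8, 75.6 and 86.5 CPM unstimulated (difference between the effects 1.12 ± 0.21, adjusted p = 0.014). Its rise in the combination was at 12 h and 24 h for the most part. Il3ra, a chain of the IL-3 receptor, had 4.64, 13.7, 12.7 and 16.8 CPM in the combination libraries and 3.53, 4.27, 7.07 and 6.18 CPM in the TNF libraries. With IFNγ alone it had 5.798, 4.69, 7.66 and 8.59 CPM, against 10.3, 6.91, 9.81 and 7.77 CPM unstimulated (difference between the effects 1.58 ± 0.33, adjusted p = 0.027).

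Rhob, a small GTPase, and Net1, a guanine nucleotide exchange factor, had differences between the effects of 1.11 and 0.49. Rhob was at 218, 245, 160.1 and 284 CPM in the combination libraries, 142, 119.8, 97.3 and 93.3 CPM in the TNF libraries, 147, 145, 90.3 and 107 CPM in the IFNγ libraries and 142, 165, 107 and 104 CPM in the unstimulated libraries. The interferon-inducible GTPase gene Gm12250 had the smaller effect with TNF, 2.84 against 5.42 without it. Its combination libraries, at 49.6, 178, 234 and 206 CPM, were close to the IFNγ libraries, at 51.4, 117, 187 and 197 CPM, while its TNF libraries, at 2.79, 17.3, 45.5 and 33.3 CPM, were above the unstimulated ones, at 1.005, 2.71, 7.396 and 2.46 CPM.

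Among the GTPases 21 of 22 fitted effects were smaller with TNF than without it, as were 36 of 42 in the antiviral list and 22 of 25 in the MHC class I list, while 4 of 12 were smaller in the complement list. Over all 12203 tested genes the fitted value was lower with TNF than without it for 6106. Gm12250 was the one GTPase for which the difference itself passed the test. Nos2 and Ubd were near the counting limit in every library but those of the combination. Nos2 had 0, 0, 0.284 and 0.264 CPM with IFNγ alone and no count in the unstimulated libraries, and Ubd had 0.74, 0.162, 0.426 and 0.132 CPM with IFNγ alone and 0, 0.123, 0 and 0 CPM unstimulated. Their differences between the effects did not pass the test (adjusted p = 0.94 for Nos2 and 0.6 for Ubd). Cxcl9 had 90.8, 85.7, 52.4 and 33.7 CPM with IFNγ alone and 0.287, 0.123, 0 and 0.389 CPM unstimulated, below its combination libraries at each duration (difference between the effects -1.11 ± 1.58, adjusted p = 0.83).

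**Figure D5:**
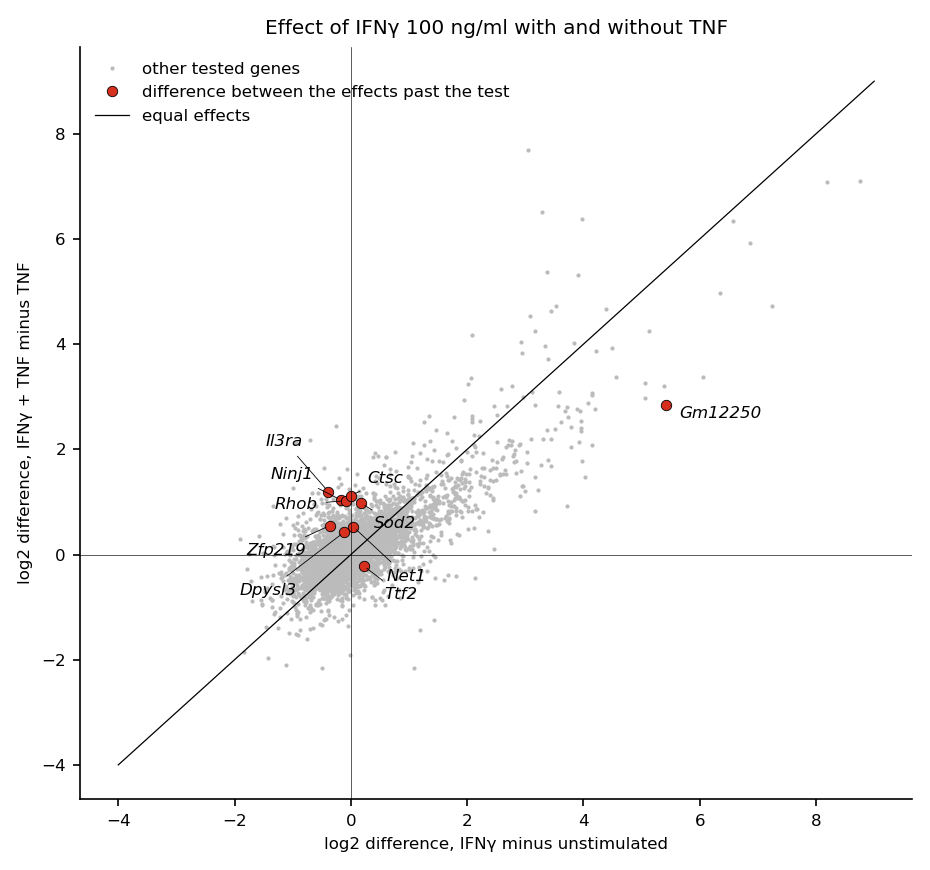
Fitted log2 difference of IFNγ 100 ng/ml + TNF 10 ng/ml minus TNF 10 ng/ml (y axis) against IFNγ 100 ng/ml minus unstimulated (x axis) for 12203 tested genes, 1 point a gene. The line marks equal effects, and the 10 genes whose effects differed by the test are marked in red and named, with Gm12250 to the right of the line.

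Genes that lower doses or other cytokines moved against the unstimulated libraries were followed in the combination. These contrasts share no library with the combination or the 10 ng/ml TNF group, although all libraries entered the same fit. Of 1160 genes (9.51% of those tested) higher with 1 ng/ml IFNγ than unstimulated, 692 (59.7%) were higher and 0 lower in the combination against TNF. Of 667 (5.47%) lower with 1 ng/ml IFNγ, 188 (28.2%) were lower and 0 higher. Of 754 genes (6.18%) higher with IFNA1, a type I interferon, 386 (51.2%) were higher and 2, Tslp and Slco4a1, lower. Among the genes that 1 ng/ml IFNγ raised, 357 of the 530 that IFNA1 also raised were higher here (67.4%), against 335 of the 629 that IFNA1 did not move (53.3%).

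Genes that 1 ng/ml TNF raised (2.01% of those tested) were higher still in the combination for 96 of 245 (39.2%) and lower for 9. For the 120 of them that 1 ng/ml IFNγ did not raise, 11 were higher (9.17%) and 9 lower (7.5%), against 9.12% and 4.84% over all tested genes. The 9 lower genes were Pxdn, Cd83, Ifngr2, Zeb1, Rin2, Gpr149, Penk, Micall2 and Dusp9. Zeb1, a repressor tied to dedifferentiation, had 58.9, 54.1, 43.96 and 47.5 CPM in the combination libraries and 55.3, 61.9, 63.02 and 78.7 CPM in the TNF libraries (log2 difference -0.32 ± 0.10, adjusted p = 0.02, not called without the 6 h, the 12 h or the 24 h libraries), while its paralog Zeb2 was higher (log2 difference 0.45 ± 0.09, adjusted p = 0.00056).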

How the data were processed

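RNA of NMM cells was made into stranded mRNA libraries (TruSeq, HiSeq 2500) from samples with RIN values above 8, per the labels' protocols. The authors deposited raw read counts for 49671 Ensembl genes in 48 libraries; HISAT and GRCm38 are named in the submitters' processing notes, while their versions, the gene annotation, the strandedness of counting and its software are not given in the sources used, so reads of overlapping or antisense genes may be shared. Totals of the 48 libraries were 5612907 to 9663207 counts. Intervals cover counting error only (95%).

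From the deposited counts, edgeR 4.0.16 in R 4.3.3 (limma 3.58.1) was used with TMM factors and filterByExpr (minimum count 10, minimum total 15), which left 12203 genes, then glmQLFit (robust) and glmQLFTest, two-sided, with 1 term per stimulus and a duration factor that pairs the groups (33 residual degrees of freedom). Because each stimulus has 1 library per duration, the 48 libraries share 1 estimate of the spread. A second model gave each stimulus a slope on log2 hours (22 residual degrees of freedom). Genes were called at a Benjamini-Hochberg adjusted p below 0.05. Standard errors are the log2 difference divided by the square root of F. CPM values of genes are TMM-scaled. The procedure was tested on simulated data.

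Named genes are the 15 largest called increases and 10 largest decreases (2-fold or more, 1 direction at the 4 durations, predicted genes and pseudogenes left out), the 10 largest called changes each way of the slope and of the difference between the effects, and members of 31 gene lists (772 genes, 625 tested). The members and lists were chosen with earlier results of these data known. Alternatives were DESeq2 1.42.0 size factors and test, no filter and a minimum count of 30, each duration left out, the compared libraries alone, no duration term, and the 2 pairs of durations. Promoter windows were matched by Ensembl identifier, symbol or synonym; a gene with several windows counts if any holds the motif.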

Additional observations from a re-analysis of the deposited data

Results flagged for a closer look

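The TNF library at 6 h had 8299893 counts, apart from the other 3 TNF libraries, which lay close together. It was the 1 such case among 33 sets of 4 values examined, which were ratios of named genes and measures of libraries. Chance alone gives about 1 in 20 of such sets, and counts are scaled by library size in every fit.

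The IFNγ effect with TNF differed from that without TNF, by the test of the difference itself, for 10 genes. On the log2 scale it was more positive with TNF by 1.58 for Il3ra, 1.201 for Ninj1, 1.12 for Ctsc, 1.11 for Rhob, 0.91 for Zfp219, 0.80 for Sod2, 0.54 for Dpysl3 and 0.49 for Net1. It was more negative for Gm12250 (-2.58) and Ttf2 (-0.43). Zfp219 and Ttf2 are among the 3 genes called in opposite directions in the 2 comparisons, the third being Gnb2. Zfp219, a zinc finger gene, had 60.8, 68.4, 46.4 and 57.4 CPM in the combination libraries, 38.7, 35.7, 43.7 and 41.2 CPM in the TNF libraries, 35.04, 29.7, 27.7 and 43.5 CPM in the IFNγ libraries and 45.8, 41.8, 40.8 and 45.6 CPM in the unstimulated libraries.

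The combination minus TNF difference changed with duration for the genes that follow, most of them at low CPM, and each lost its call without the 24 h libraries. The slopes, as log2 change per doubling of duration, were 1.55 for Ptx3, 1.55 for RP23-127B8.7, 1.35 for Adap1, 1.29 for Gbp8, 1.11 for Tcaf2, 1.04 for Onecut2, 0.95 for Fam65c, 0.87 for Slco3a1, 0.83 for Phf11b and 0.81 for Fhod3. Downward slopes were -1.58 for Cd33, -1.35 for Trim69, -1.26 for Tubb3, -1.10 for Kctd12b, -0.97 for Adamtsl3, -0.92 for Tns1, -0.77 for Megf10, -0.75 for Sox7, -0.74 for Cdc42ep2 and -0.73 for Osgin1. Megf10, an engulfment receptor gene, had 46.1, 5.64, 2.49 and 2.67 CPM in the combination libraries and 51.04, 19.99, 11.2 and 15.5 CPM in the TNF libraries at 2, 6, 12 and 24 h.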

How the results depend on the processing

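The combination against TNF comparison gave 1704 calls, 1113 higher and 591 lower, a share higher of 65.3%. DESeq2's test called 1688, of which 1621 were shared and of the same sign. Calls numbered 2461 without the 2 h libraries (1400 higher, 1061 lower), 810 without 6 h (630, 180), 786 without 12 h (585, 201) and 950 without 24 h (779, 171). The 8 libraries alone gave 1068 calls with 251 lower, and the fit without a filter 286 lower. Without the duration term, that is with no replicate block, 426 were called, 372 higher and 54 lower; the labels carry no replicate numbers, so the pairing is by duration. The 2 h and 6 h libraries alone gave 455 calls (408 higher, 47 lower) and the 12 h and 24 h libraries 916 lower. The share higher was 77.4% without a filter, 77.8% without the 6 h libraries, 82.0% without the 24 h libraries, 76.5% with the 8 libraries, 87.3% without the duration term and 89.7% with the 2 h and 6 h libraries, while DESeq2 size factors gave 65.7%. The causes were not tested.

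The difference between the IFNγ effects gave 10 calls. DESeq2 called 23 (16 more positive, 7 more negative), the 12 h and 24 h libraries 94 (27 and 67), and the fit without a filter 1 more negative. The 16 libraries alone, the fit without the duration term (no pairing block) and the 2 h and 6 h libraries each called 0, 0 in both directions. There were 45 without the 2 h libraries (29 and 16), 0 without 6 h, 2 without 12 h (2 and 0) and 3 without 24 h (3 and 0). The slope gave 399 calls; the fit without a filter gave 119 falling, a late minus early contrast 95 (41 rising, 54 falling), the 8 libraries 104 rising, and leaving out a duration 144 without 2 h (49 rising, 95 falling), 514 without 6 h (233, 281), 183 without 12 h (92, 91) and 23 without 24 h (15, 8). Motif shares among genes at least 2-fold higher were 18.5% for GAS and 17.7% for the ISRE core.

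Values of single genes under the alternatives stayed the same in 7463 cases. For differences and slopes, this means the same side of the threshold, and the same direction if called. For ratios at a single duration under other prior counts it means within the interval for counting error, and 9 such ratios moved. Of the differences and slopes, 1095 lost the call, 269 gained one and 6 turned. The difference was -0.00150 for Fam65c with the 2 h and 6 h libraries, and with the 12 h and 24 h libraries it was -2.02 for Adamtsl3, -0.32 for Ifitm2, -0.24 for Fosl2, -0.79 for Bnip3 and -0.69 for Egln3. Genes below about 1 CPM rest on a handful of counts a library.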
